A study of Mus musculus with 14 samples.

Results

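The core circadian clock genes of the liver were followed in diet-induced obese (DIO) mice, in mice whose gallbladder had been joined to the ileum (GB-IL), and in mice given a Roux-en-Y bypass of the stomach (RYGB). The set holds 10 genes, listed by name as core parts of the clock: Arntl, Clock, Per1, Per2, Per3, Cry1, Cry2, Nr1d1, Nr1d2 and Dbp. All 10 were found among the 25212 genes of the count table, and all 10 were among the 14252 genes with enough reads to be tested. The RNA came from 14 livers of male C57BL/6 mice, 1 library a liver, with 5 DIO, 4 GB-IL and 5 RYGB livers. All 3 groups were fed the same high-fat diet before surgery, and DIO mice had no operation. The authors kept the mice on this diet after surgery until the last measurements. The labels place the livers 8 weeks after surgery or no surgery. GB-IL carries bile past the upper small intestine to the ileum, and RYGB carries food past most of the stomach and the upper intestine. No sham-operated liver was analysed here, so an effect of an operation as such and of the altered bile or food path cannot be told apart. The hour at which each liver was removed is not given in the sources used here, nor is its feeding state, and the part of either in any difference was not tested.

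The circadian clock of a liver cell is a loop of transcription and repression that takes about a day. Arntl (also called Bmal1) and Clock proteins pair on E-box sequences and switch on the Per and Cry genes, whose proteins accumulate, return to the nucleus and silence the pair. A connected loop runs through Nr1d1 and Nr1d2 (Rev-erb alpha and beta), which the pair switches on and which repress Arntl at Rev-erb elements, while Dbp, a further target of the pair, carries the rhythm to D-box sequences of downstream genes. In mouse liver Arntl RNA peaks near the change from night to day, Nr1d1 and Dbp peak during the day and Per2 around dusk, so that Arntl and Dbp run almost opposite to each other. Feeding time and glucocorticoids set this clock, and Per1 and Per2 also answer to them directly.

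The sequences by which these genes act on each other were looked up in RefSeq promoter windows of GRCm38.p6, each from 250 bases before to 50 bases after an annotated start. Of the members, 9 matched the table, all but Per2, with 13 windows between them. The motifs searched, on both strands, were the E-box CACGTG, the variant E-box CACGTT, the D-box TTATGNAA and the Rev-erb element, an A-rich stretch that ends in AGGTNA. They were found in 7.15%, 4.68%, 3.38% and 0.0609% of all 32851 promoter windows. The shown stretches are those of members with a match, since they carry the letters that link the activators, repressors and output gene, and the capitals mark the motif. Each is written 5′ to 3′ on the strand of its gene. The Per3 stretch holds 2 D-boxes, whose first bases lie at -205 and -158 relative to the start. The Cry1 stretch holds the reverse complement of the variant E-box followed by an E-box, and that of Cry2 and of Nr1d1 the reverse complement of the variant E-box.
Per3, upstream of the gene, chr4:151044786-151044900, minus strand: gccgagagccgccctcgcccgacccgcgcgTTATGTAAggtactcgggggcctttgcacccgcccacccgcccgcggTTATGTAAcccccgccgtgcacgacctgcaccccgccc
Cry1, upstream of the gene, chr10:85185079-85185163, minus strand: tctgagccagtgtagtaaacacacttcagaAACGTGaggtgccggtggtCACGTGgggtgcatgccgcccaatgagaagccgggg
Cry2, upstream of the gene, chr2:92434200-92434265, minus strand: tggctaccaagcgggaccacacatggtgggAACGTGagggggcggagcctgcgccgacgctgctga
Nr1d1, upstream of the gene, chr11:98775378-98775435, minus strand: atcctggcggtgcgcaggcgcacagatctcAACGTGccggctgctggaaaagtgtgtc
Per1, E-box within the gene and outside its exons, chr11:69098753-69098818, plus strand: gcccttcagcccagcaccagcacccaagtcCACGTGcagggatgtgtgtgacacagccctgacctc
Per1, D-box within the gene and outside its exons, chr11:69098910-69098947, plus strand: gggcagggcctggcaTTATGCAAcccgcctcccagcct
Arntl, first Rev-erb element, in an exon, chr7:113207492-113207520, plus strand: attggtcggAAAGTAGGTTAgtggtgcga
Arntl, second Rev-erb element, in an exon, chr7:113207528-113207556, plus strand: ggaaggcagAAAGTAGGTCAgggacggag
The E-box of Per1 began at -166 and its D-box at -24, and the E-box of Cry1 began at -60. Clock, Nr1d2 and Dbp had none of these letters in their windows. A match describes the sequence and is not a measured binding site.

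Levels are given as CPM, the reads of a gene scaled to a common library size by the trimmed-mean (TMM) method, and differences as log2 fold changes with their standard error (SE). The libraries held 18223135 to 28656631 counted reads, and the lowest count of any member in any liver was 24 reads, for Arntl. Compared per kilobase of annotated exon, the mean level over the 14 livers was highest for Nr1d1 at 23.4 CPM per kb, then Dbp at 17.3, Nr1d2 at 13.3, Per1 at 11.2, Cry2 at 7.68, Per2 at 4.02, Cry1 at 2.83, Per3 at 2.27, Clock at 1.79 and Arntl at 1.24 CPM per kb. Most neighbours in this order changed places between livers: Nr1d1 was above Dbp in 7 of the 14 livers, Dbp above Nr1d2 in 8, Per1 above Cry2 in 9, and Cry1 above Per3 and Per3 above Clock in 8 each. Nr1d2 was above Per1, Per2 above Cry1 and Clock above Arntl in 11 of the 14. Only the step from Cry2 to Per2 held in all 14 livers, with a mean log2 ratio of 0.95 ± 0.72 (SD, n = 14). The hepatocyte markers, 10 genes such as Alb, summed to between 95180 and 152300 CPM in every liver.

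Livers of the same group differed widely in clock genes. The SD within groups was 1.46 on the log2 scale for Dbp, 1.36 for Arntl and 1.28 for Per3, against a median of 0.378 over all tested genes. These SDs stood at the 99.1, 98.8 and 98.5 percentiles of all tested genes, and that of Per1, 0.992, at the 96.6 percentile. Nr1d2 was the exception, with an SD of 0.356 at the 44.8 percentile. Between the lowest and the highest of the 14 livers Dbp ranged 40.9-fold, Per3 34.7-fold, Per1 28.5-fold and Arntl 19.3-fold, and Nr1d2 3.21-fold. The heatmap by liver shows how these ranges line up.

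**Figure D1:**
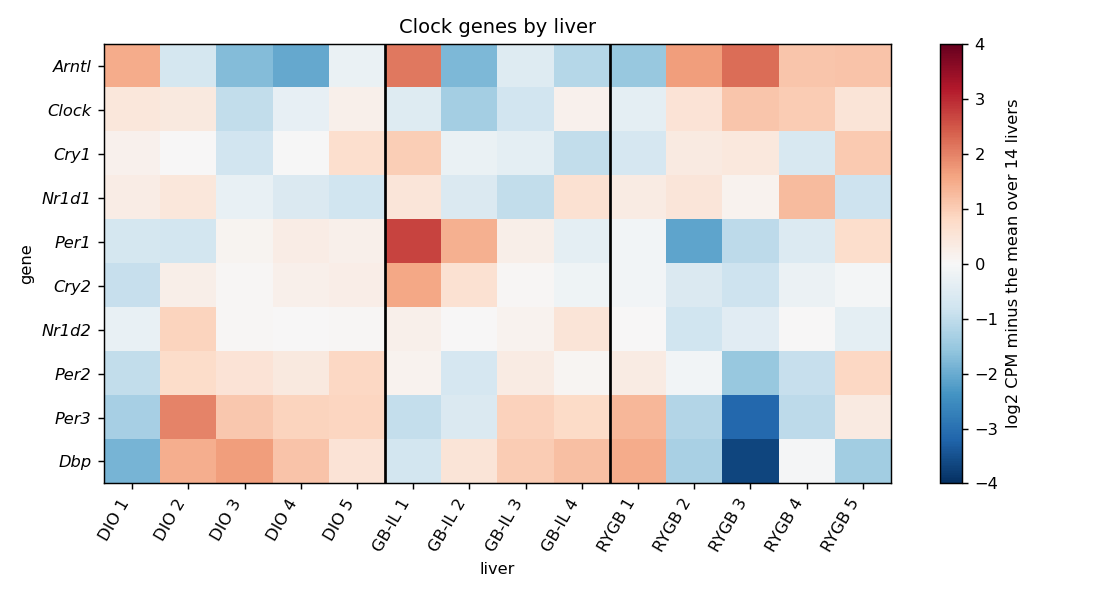
Heatmap of the 10 clock genes (rows) in the 14 livers (columns, black lines between DIO, GB-IL and RYGB), coloured by log2 CPM minus the gene's mean over 14 livers. Arntl was high and Dbp was low in DIO 1, GB-IL 1 and RYGB 2 to RYGB 5, with Arntl from 12.1 to 26.3 CPM there and from 1.36 to 4.66 CPM in the other 8 livers.

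Among the activators, Arntl measured 15.7, 3.44, 1.68, 1.36 and 4.66 CPM in DIO 1 to DIO 5. In GB-IL 1 to GB-IL 4 it measured 24.4, 1.64, 3.90 and 2.58 CPM, and in RYGB 1 to RYGB 5 it measured 1.97, 18.1, 26.3, 12.1 and 12.5 CPM. The high livers were 1 DIO liver, 1 GB-IL liver and 4 RYGB livers, no liver lay between 4.66 and 12.1 CPM, and all 3 groups overlapped. Clock, the partner of Arntl, measured 29.99, 28.4, 11.04, 17.4 and 24.95 CPM in the DIO livers. It measured 15.2, 8.47, 12.9 and 24.7 CPM in the GB-IL livers and 16.8, 31.7, 47.5, 43.8 and 31.1 CPM in the RYGB livers. Of the 5 RYGB livers 4 were above every DIO liver, and 3 of the 4 GB-IL livers were below every RYGB liver. RYGB 1, the liver lowest in Clock among the RYGB livers, was also their lowest in Arntl.

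Of the Per genes, which encode the repressors that Arntl and Clock switch on, Per1 measured 27.3, 26.9, 47.8, 54.3 and 51.1 CPM in DIO 1 to DIO 5. It measured 292.7, 119.3, 52.4 and 34.2 CPM in GB-IL 1 to GB-IL 4, and 41.8, 10.3, 21.4, 30.9 and 72.2 CPM in RYGB 1 to RYGB 5. GB-IL 1 and GB-IL 2 were above every other liver in Per1, and the remaining GB-IL livers lay within the DIO range. Per2 measured 10.6, 34.8, 30.8, 27.8 and 37.9 CPM in the DIO livers, 23.3, 13.3, 26.4 and 22.2 CPM in the GB-IL livers, and 26.7, 19.7, 7.36, 11.1 and 37.5 CPM in the RYGB livers. DIO 1 was low among the DIO livers, and the groups overlapped throughout. Per3 measured 6.12, 61.2, 32.5, 28.6 and 28.2 CPM in the DIO livers, 7.98, 10.3, 28.9 and 26.4 CPM in the GB-IL livers, and 38.6, 6.81, 1.76, 7.45 and 19.97 CPM in the RYGB livers. Per3 was low in DIO 1, in GB-IL 1 and GB-IL 2 and in RYGB 2 to RYGB 4, and lowest of all in RYGB 3, the liver highest in Arntl.

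The Cry genes encode the proteins that, bound to Per, silence the activator pair. Cry1 measured 9.79, 8.61, 5.09, 8.54 and 13.8 CPM in the DIO livers, 17.1, 7.23, 6.57 and 4.39 CPM in the GB-IL livers, and 5.41, 11.1, 11.4, 5.50 and 17.9 CPM in the RYGB livers. The highest liver was 2.70-fold above the lowest in DIO, 3.90-fold in GB-IL and 3.31-fold in RYGB, and the 3 groups overlapped. Cry2 measured 23.1, 52.4, 45.1, 50.8 and 53.1 CPM in the DIO livers, 129.7, 67.1, 45.2 and 39.0 CPM in the GB-IL livers, and 40.7, 29.3, 24.8, 37.3 and 42.0 CPM in the RYGB livers. Cry2, like Per1, was highest in GB-IL 1 and next in GB-IL 2.

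Of the nuclear receptors that repress Arntl, Nr1d1 measured 79.0, 89.6, 53.1, 43.3 and 37.1 CPM in the DIO livers. It measured 91.2, 43.2, 32.6 and 100.01 CPM in the GB-IL livers and 80.7, 90.5, 72.0, 157 and 36.6 CPM in the RYGB livers. High and low livers occurred in each group. Nr1d2 measured 56.6, 129.2, 72.3, 70.2 and 71.1 CPM in the DIO livers, 79.0, 69.4, 76.5 and 99.5 CPM in the GB-IL livers, and 70.3, 40.2, 51.0, 70.7 and 52.7 CPM in the RYGB livers. In all, 3 RYGB livers were below every DIO and every GB-IL liver. Nr1d1 shares 263 bases of exon with Thra, a thyroid hormone receptor gene on the opposite strand. Its count may have gained or lost reads there, since the strand setting of the counting is not given in the sources used here. Thra had a mean of 13.5 CPM.

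Dbp, the output factor, measured 9.53, 95.02, 110.8, 76.7 and 50.7 CPM in DIO 1 to DIO 5. In GB-IL 1 to GB-IL 4 it measured 21.01, 50.04, 70.1 and 80.1 CPM, and in RYGB 1 to RYGB 5 it measured 97.1, 14.01, 2.71, 33.8 and 13.3 CPM. The 6 livers DIO 1, GB-IL 1 and RYGB 2 to RYGB 5 were below all others in Dbp, and these were the livers high in Arntl. Per kilobase of exon, the log2 ratio of Dbp to Arntl was -1.95 in RYGB 3 and 7.37 in DIO 3, and it was at most 2.81 in those 6 livers and at least 4.77 in the other 8. Dbp shares 539 bases of exon with Sphk2, a sphingosine kinase gene on the opposite strand, which ranged from 30.4 to 68.9 CPM. Sphk2 exceeded Dbp in the 6 livers low in Dbp and also in DIO 5 and GB-IL 2, and whether the counting kept the 2 strands apart is not known.

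**Figure D2:**
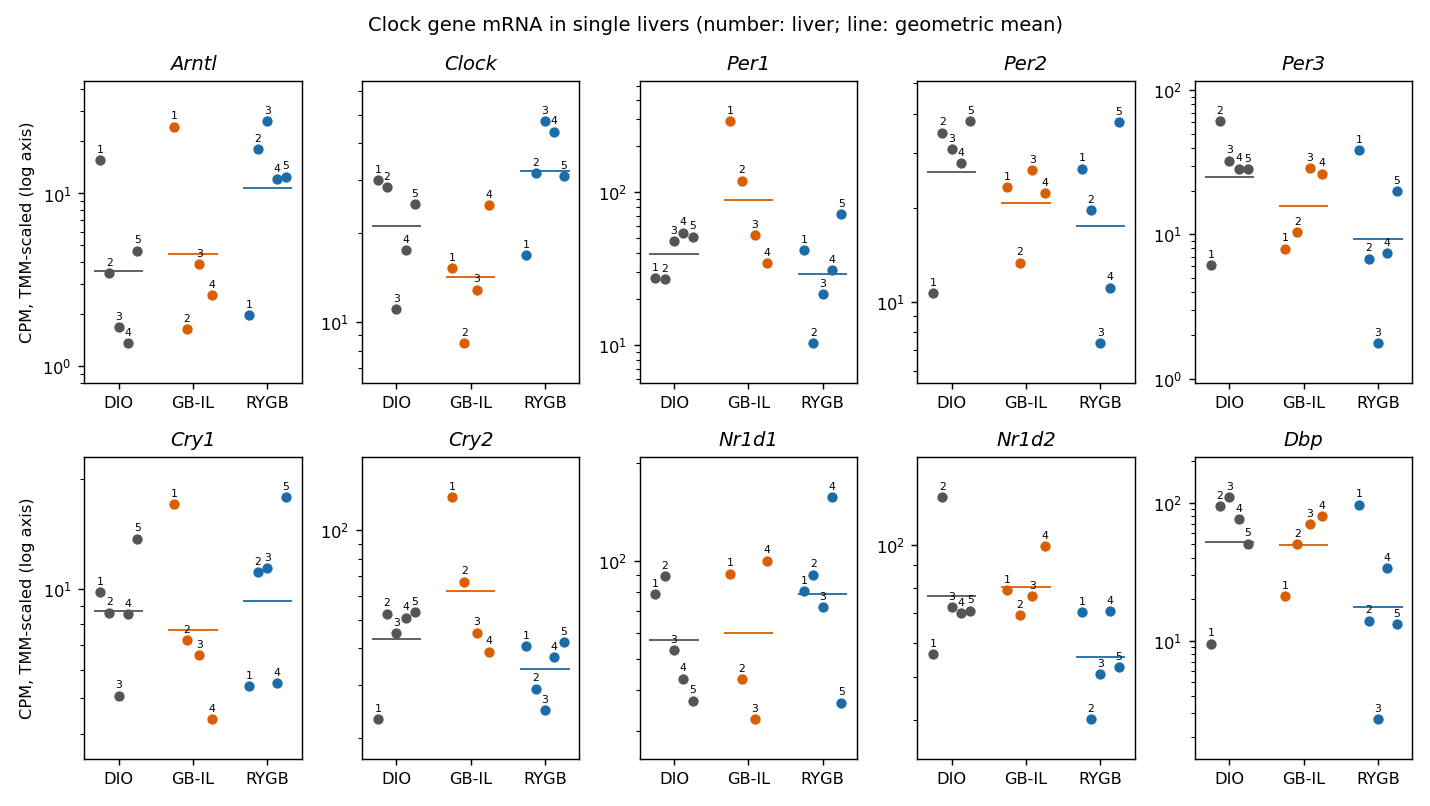
Levels of each clock gene in CPM on a log axis, one point a liver numbered as in the text, with a line at the geometric mean of each group (DIO n = 5, GB-IL n = 4, RYGB n = 5). The 4 high RYGB livers in Arntl lie at 12.1 to 26.3 CPM beside RYGB 1 at 1.97 CPM, and Per1 reaches 292.7 CPM in GB-IL 1.

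GB-IL was compared with DIO to ask how diverting bile to the ileum alters the liver. None of the 10 clock genes passed a false discovery rate (FDR) of 0.05 in edgeR's quasi-likelihood test, where 3.26% of all tested genes did (465 genes), and none was called by DESeq2 (8.06% of its genes) or by voom with sample quality weights (4.13%). In GB-IL 5 members were higher and 5 lower, with a median log2 fold change of -0.02, against 0.04 over all tested genes. The median size of the change was 0.479, against 0.369 over all tested genes. Per1 was the only member with an unadjusted p below 0.05, a threshold that 23.1% of all tested genes passed. Its mean was 124.6 ± 117.9 CPM in GB-IL (SD, n = 4) and 41.5 ± 13.3 CPM in DIO (SD, n = 5), a log2 fold change of 1.59 (SE 0.582, quasi-likelihood adjusted p = 0.132). Of the 4 GB-IL livers 2 were above every DIO liver, and without GB-IL 1 the log2 fold change was 0.72 (adjusted p = 0.526), while without GB-IL 4 it was 1.89 and passed (adjusted p = 0.0250, where 24.6% of all genes were called). Cry2 had a log2 fold change of 0.64 (SE 0.329, adjusted p = 0.251) and Clock of -0.55 (SE 0.358, adjusted p = 0.349). For Arntl the value was 0.60 (SE 0.856, adjusted p = 0.674), and it was -0.99 without GB-IL 1. No member had all GB-IL livers on one side of all DIO livers, which 4.17% of all tested genes had.

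RYGB was compared with DIO to ask the same of the bypass. No clock gene passed the FDR, and 0% of all tested genes did, although 1241 genes (8.71%) had an unadjusted p below 0.05 and DESeq2 called 94 genes (0.596%), none of them a member. In RYGB 4 members were higher and 6 lower, and the median size of their log2 fold change was 0.509, against 0.220 over all tested genes. Arntl averaged 14.2 ± 8.90 CPM in RYGB (SD, n = 5) and 5.36 ± 5.91 CPM in DIO (SD, n = 5), a log2 fold change of 1.41 (SE 0.819, quasi-likelihood adjusted p = 0.651). Dbp averaged 32.2 ± 38.0 CPM in RYGB and 68.6 ± 39.9 CPM in DIO, a log2 fold change of -1.09 (SE 0.750, adjusted p = 0.708). In both genes the livers of the groups overlapped and the SD was of the size of the difference. The values for Per3 were -1.07 (SE 0.686, adjusted p = 0.687) and for Clock 0.61 (SE 0.334, adjusted p = 0.630). Nr1d2 alone had an unadjusted p below 0.05, with 57.0 ± 13.3 CPM in RYGB and 79.9 ± 28.3 CPM in DIO and a log2 fold change of -0.49 (SE 0.227, adjusted p = 0.572). In Arntl, Dbp and Per3, DIO 1 lay within the range of RYGB 2 to RYGB 5, and RYGB 1 lay within the range of DIO 2 to DIO 5. Without RYGB 1 the log2 fold change was -2.11 for Dbp (adjusted p = 0.398) and -1.80 for Per3 (adjusted p = 0.418), and without DIO 1 it was 2.35 for Arntl (adjusted p = 0.437). Voom with sample quality weights, which gives variable livers less weight, called Arntl (1.99), Per2 (-1.11), Per3 (-2.05) and Nr1d1 (1.00), at adjusted p from 0.0334 to 0.0490, where 11.9% of all genes were called. No member separated the groups without overlap, which 3.53% of all tested genes did.

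GB-IL was compared with RYGB as the 2 operations. Again no clock gene passed the FDR of the quasi-likelihood test, and 0% of all tested genes did, with 22.1% of all genes and 3 of the 10 members, Clock, Per1 and Cry2, at an unadjusted p below 0.05. The median size of the members' log2 fold change was 0.647, against 0.361 over all tested genes. Clock averaged 15.3 ± 6.85 CPM in GB-IL (SD, n = 4) and 34.2 ± 12.1 CPM in RYGB (SD, n = 5), a log2 fold change of -1.16 (SE 0.363, quasi-likelihood adjusted p = 0.116). Per1 was 3.53-fold higher in GB-IL by the fit, a log2 fold change of 1.82 (SE 0.584, adjusted p = 0.121). Cry2 averaged 70.2 ± 41.4 CPM in GB-IL and 34.8 ± 7.498 CPM in RYGB, with a log2 fold change of 1.01 (SE 0.330, adjusted p = 0.125). Of the 4 GB-IL livers 3 exceeded the whole RYGB group in Cry2. DESeq2 called Clock (-1.17, adjusted p = 0.0416) and Per1 (1.83, adjusted p = 0.0343), with 5.44% of its genes called, and voom with sample quality weights called 0 members (0.807% of all genes). Without GB-IL 1 the log2 fold change of Per1 was 0.96 (adjusted p = 0.358) and that of Cry2 0.53 (adjusted p = 0.343). Without GB-IL 4 the quasi-likelihood test called Clock (-1.50), Per1 (2.12) and Cry2 (1.20), where 21.5% of all genes were called. Nr1d2 had a log2 fold change of 0.51 (SE 0.240, adjusted p = 0.228), Dbp 0.79 (SE 0.783, adjusted p = 0.546) and Arntl -0.81 (SE 0.863, adjusted p = 0.571). Single livers moved both values: without GB-IL 1 that of Arntl was -2.40 (adjusted p = 0.231), without RYGB 1 that of Dbp was 1.80 (adjusted p = 0.164), and voom with sample quality weights gave -1.89 and 2.11 (adjusted p = 0.345 and 0.347). No member was free of overlap, which 2.84% of all tested genes were. The 3 comparisons share their livers pairwise, so their values are not independent of each other.

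**Figure D3:**
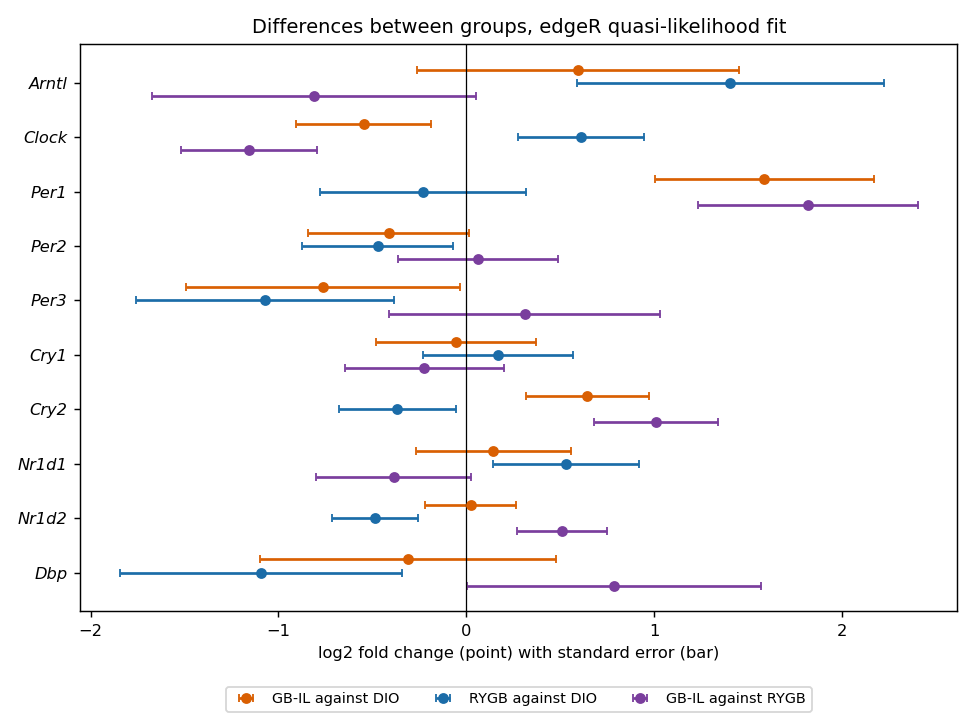
Log2 fold changes (points) with their standard error (bars) of the 10 clock genes in the 3 comparisons, from edgeR's quasi-likelihood fit. Between GB-IL and RYGB, Clock at -1.16, Per1 at 1.82 and Cry2 at 1.01 stand farthest from 0 in relation to their bars, and none passed an FDR of 0.05.

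Exact two-sided permutation tests of log2 CPM in single comparisons gave their smallest p for Clock between GB-IL and RYGB, p = 0.0317, and Cry2 and Nr1d2 had p = 0.0476 there. Over the 30 tests of 10 members in 3 comparisons the smallest adjusted p of the exact permutation test was 0.476. The smallest p these group sizes allow is 0.0159 for 4 against 5 livers and 0.00794 for 5 against 5 livers.

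Whether clock genes moved together from liver to liver was measured after removing each group's mean, so that differences between groups play no part. Over 14 livers and 45 pairs, with exact within-group permutation (345600 arrangements), 4 pairs passed an FDR of 0.05 by Pearson correlation. Dbp and Arntl ran opposite, with r = -0.842 (exact permutation p = 0.000596, adjusted p = 0.0268) and Spearman's rho = -0.785 (exact permutation p = 0.00102, adjusted p = 0.0229), the only pair past the FDR by both measures. Without GB-IL 1 and RYGB 1, the livers farthest out in Arntl, r was -0.786 (exact permutation p = 0.0119), and leaving out 1 liver at a time it stayed between -0.890 and -0.773. In the DIO and RYGB livers alone r was -0.902. These 2 genes are the activator and the output that are known to peak at nearly opposite times of day.

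Per3 and Dbp rose and fell together with r = 0.873 (exact permutation p = 0.00175, adjusted p = 0.0338) and rho = 0.692 (exact permutation p = 0.0210, adjusted p = 0.147). Without DIO 1 and RYGB 3, farthest out in Per3, r was 0.668 (exact permutation p = 0.0827), so this relation rests in part on those livers. Per2 and Per3 had r = 0.840 (exact permutation p = 0.00339, adjusted p = 0.0381) and rho = 0.780 (exact permutation p = 0.00607, adjusted p = 0.0572). Without the same 2 livers r was 0.595 (exact permutation p = 0.155), and this relation too rests on them. Per3 carries the 2 D-boxes shown above, and Dbp encodes a protein known to bind that motif. Per1, which also carries a D-box, had r = 0.017 with Dbp (exact permutation p = 0.96, adjusted p = 0.972), and Per2 had no window to search. The part of D-boxes in these correlations was not tested.

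Per1 and Cry2 had r = 0.798 (exact permutation p = 0.00225, adjusted p = 0.0338) and rho = 0.728 (exact permutation p = 0.00636, adjusted p = 0.0572). Without GB-IL 4 and RYGB 2, farthest from the median of the centred Per1 values, r was 0.809 (exact permutation p = 0.00799). GB-IL 1, the highest liver in both genes, stayed in that check. Leaving out 1 liver at a time, r stayed between 0.665 and 0.8585. Over the 14 livers Cry2 had r = 0.502 with Per2 (exact permutation p = 0.0472, adjusted p = 0.227; rho = 0.600, exact permutation p = 0.0251, adjusted p = 0.147), and lower r with Per3 (0.277) and Dbp (0.276). In the DIO and RYGB livers alone, where no pair passed the FDR, r with Cry2 was 0.857 for Per3 (exact permutation p = 0.00313), 0.828 for Per2 (exact permutation p = 0.0176), 0.792 for Dbp (exact permutation p = 0.0166) and 0.579 for Per1 (exact permutation p = 0.0489). Per2 and Dbp had r = 0.594 (exact permutation p = 0.0677, adjusted p = 0.254) and rho = 0.319 (exact permutation p = 0.351, adjusted p = 0.578). Per1 and Per2, close relatives, had r = 0.285 (exact permutation p = 0.343, adjusted p = 0.497) and rho = 0.301 (exact permutation p = 0.324, adjusted p = 0.578). Cry1 and Dbp passed by rank only, with rho = -0.811 (exact permutation p = 0.000836, adjusted p = 0.0229) and r = -0.638 (exact permutation p = 0.0215, adjusted p = 0.157). Arntl and Per3 had r = -0.715 (exact permutation p = 0.00722, adjusted p = 0.0650) and rho = -0.604 (exact permutation p = 0.0312, adjusted p = 0.147), and without GB-IL 1 and RYGB 1 r was -0.571 (exact permutation p = 0.0938). Arntl and Clock, partners in one complex, had r = 0.618 (exact permutation p = 0.0387, adjusted p = 0.217) and rho = 0.626 (exact permutation p = 0.0326, adjusted p = 0.147). Arntl and its repressor Nr1d1 had r = 0.257 (exact permutation p = 0.432, adjusted p = 0.571) and rho = 0.169 (exact permutation p = 0.609, adjusted p = 0.783).

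**Figure D4:**
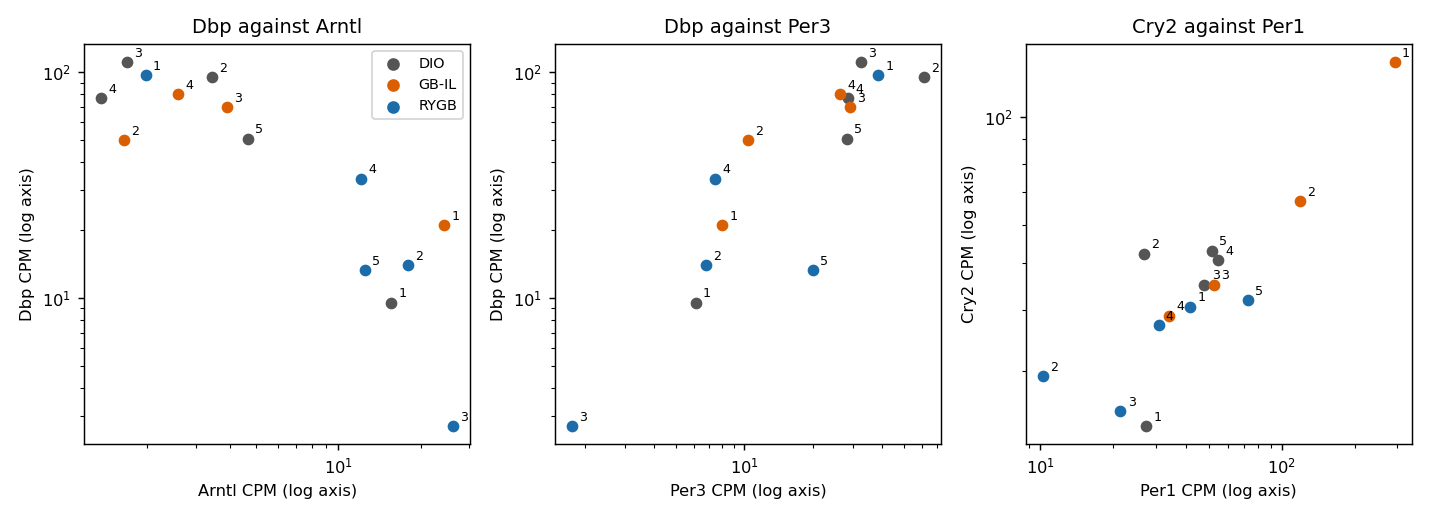
Dbp against Arntl, Dbp against Per3 and Cry2 against Per1, in CPM on log axes, one numbered point a liver and coloured by group. Dbp falls from 110.8 CPM in DIO 3 to 2.71 CPM in RYGB 3 as Arntl goes from 1.68 to 26.3 CPM. Group means were not removed here, and of the 6 livers high in Arntl 1 was DIO, 1 GB-IL and 4 RYGB.

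**Figure D5:**
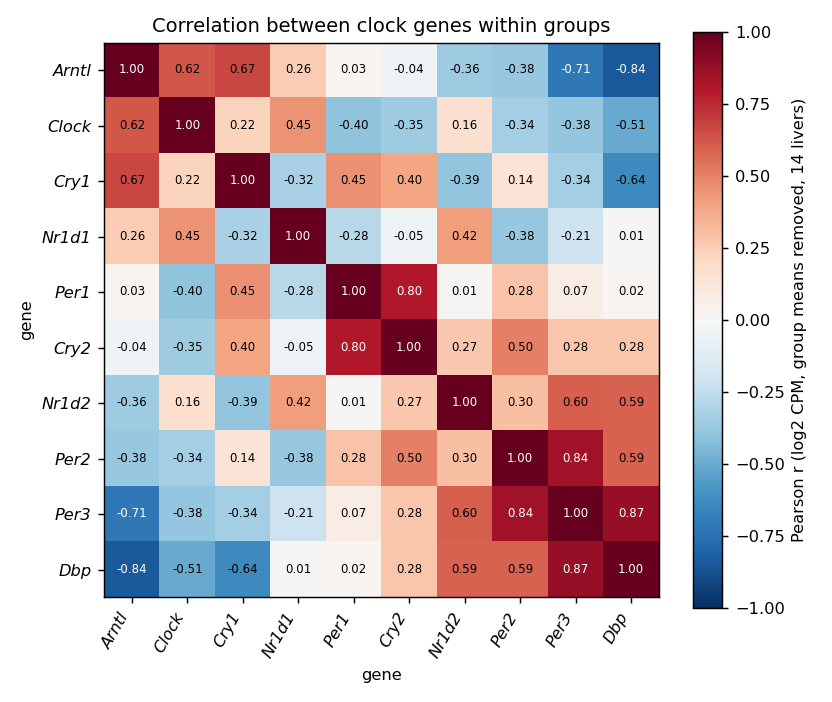
Pearson r between all pairs of clock genes over 14 livers, from log2 CPM with the group means removed. The strongest negative value is Arntl with Dbp at -0.842 and the strongest positive is Per3 with Dbp at 0.873, with Per2 and Per3 at 0.840 and Per1 and Cry2 at 0.798.

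The genes whose pattern was most like that of the members were read from the same centred log2 CPM over 14 livers among all tested genes, as a description. For Per3 the most alike was Tef at r = 0.939, a close relative of Dbp that binds the same D-box, and Usp2, a ubiquitin protease, had r = 0.883. The most opposite to Dbp was Npas2 at r = -0.928, which encodes an alternative partner of Arntl, and Npas2 was also the most opposite to Per3 at r = -0.893. Npas2 measured 2.46 CPM in DIO 1, from 0 to 0.197 CPM in the other DIO livers, 0.735 CPM in GB-IL 1, from 0.282 to 0.339 CPM in the other GB-IL livers, 0.273 CPM in RYGB 1 and from 1.39 to 6.09 CPM in RYGB 2 to RYGB 5. In each group the livers high in Arntl were thus the livers high in Npas2. Per2 was most like Nampt (r = 0.853), the enzyme of NAD salvage. Nr1d1 was most like Thra (r = 0.912), the gene with which it shares exon bases. Per1 was most opposite to Acly (r = -0.972), which makes acetyl-CoA for fat synthesis. The most alike genes were Asap2 for Arntl (r = 0.946), Appbp2 for Clock (r = 0.959), Desi2 for Cry1 (r = 0.932), Mllt6 for Cry2 (r = 0.948) and Peli2 for Nr1d2 (r = 0.915).

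Other components of the clock were taken from a list of 25 genes in the table, of which 24 were tested, and none passed the FDR of the quasi-likelihood test in any comparison. DESeq2 called 0 of them, with 8.06% of its genes called in GB-IL against DIO, 0.596% in RYGB against DIO and 5.44% in GB-IL against RYGB. Voom with sample quality weights called 5 in RYGB against DIO, Npas2 higher and Gm129, Tef, Hlf and Usp2 lower, where 11.9% of all genes were called. At an unadjusted p below 0.05, RYGB had 1 of the 24 higher and 3 lower than DIO, where 8.71% of all tested genes passed. Gm129 (Ciart), a repressor of the activator pair, had a log2 fold change of -2.19 (SE 0.84, adjusted p = 0.510) and Tef of -0.93 (SE 0.35, adjusted p = 0.508). In GB-IL against DIO 2 were higher and 1 lower at that threshold, which 23.1% of all tested genes passed: Nfil3, a repressor at D-boxes, at 1.66 (adjusted p = 0.142), the clock kinase gene Csnk1e at 1.08 (adjusted p = 0.132) and Hlf, another relative of Dbp, at -0.98 (adjusted p = 0.153). In GB-IL against RYGB 2 were higher and 2 lower (22.1% of all tested genes), with Npas2 at -2.59 (SE 1.02, adjusted p = 0.170). Npas2 counts were few, 0 to 173 reads a liver, and the 0 in DIO 3 allows up to 3 reads or 0.153 CPM by counting error alone.

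Rhythmic output genes of liver were taken from a list of 19 genes, all tested, and none passed the FDR of the quasi-likelihood test in any comparison. DESeq2 called 1 in RYGB against DIO (0.596% of its genes) and 2 in GB-IL against RYGB (5.44%), Tfrc in both and Por in the latter. Voom with sample quality weights called 8 in RYGB against DIO, 2 of them higher, where 11.9% of all genes were called. At an unadjusted p below 0.05 there were 1 higher and 0 lower in GB-IL against DIO (23.1% of all tested genes), 2 higher and 4 lower in RYGB against DIO (8.71%), and 1 higher and 3 lower in GB-IL against RYGB (22.1%). Tfrc, the transferrin receptor, measured 16.0, 15.0, 17.7, 13.9 and 11.97 CPM in the DIO livers, 41.0, 34.7, 21.1 and 30.5 CPM in the GB-IL livers, and 81.7, 102.7, 47.1, 24.4 and 263.1 CPM in the RYGB livers. Every RYGB and every GB-IL liver was above every DIO liver, and 3.53% and 4.17% of all tested genes separated these groups in either direction. The log2 fold changes of Tfrc were 2.80 (SE 0.48, quasi-likelihood adjusted p = 0.218) and 1.09 (SE 0.48, adjusted p = 0.193). Gys2, the liver glycogen synthase, had a log2 fold change of -0.86 (SE 0.26, adjusted p = 0.410) in RYGB against DIO, and Lpin1, a phosphatidate phosphatase of fat synthesis, had -1.61 (SE 0.53, adjusted p = 0.446).

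Genes that answer to hormones, temperature and acute stimuli were set beside Per1, because Per1 is known to respond to such signals. Of 13 glucocorticoid-response genes 1 was called in GB-IL against DIO, Sgk1, a kinase gene, at 2.38 (SE 0.58, quasi-likelihood adjusted p = 0.0390). Of 10 temperature-response genes Rbm3, which encodes an RNA-binding protein, was called at 1.93 (SE 0.41, adjusted p = 0.0310). Of 8 tested immediate early genes Ier3 was called at 4.24 (adjusted p = 0.0278) and Atf3 at 2.65 (adjusted p = 0.0365), where 3.26% of all tested genes were called. These calls depended on the livers in the fit: the quasi-likelihood test called 0 genes of the table without any 1 of the DIO livers, without GB-IL 1, without GB-IL 2 or in a fit of the 2 groups alone, and 1 gene was called with the replicate number as a block. At an unadjusted p below 0.05 in GB-IL against DIO (23.1% of all tested genes), 5 glucocorticoid-response genes were higher and 1 lower. The temperature-response list had 2 higher and 0 lower, and the immediate early list 7 and 0. Tsc22d3 and Fkbp5, glucocorticoid-response genes too, had -0.51 (quasi-likelihood adjusted p = 0.379) and -0.05 (adjusted p = 0.965). None of these 3 lists had a quasi-likelihood call in the other comparisons, where 0% of all tested genes were called. Voom with sample quality weights called only Rbm3 of them in GB-IL against DIO (4.13% of all genes). DESeq2 called 4, 2 and 7 of the 3 lists there, all higher (8.06% of its genes). In RYGB against DIO voom called 0 higher and 2 lower, 1 and 1, and 2 and 0 of the 3 lists (11.9%). DESeq2 called 0 there (0.596%). In GB-IL against RYGB DESeq2 called 3, 1 and 2 of the 3 lists, all higher (5.44%), and voom called 0 (0.807%). Sgk1 measured 216.5, 63.0, 23.2 and 16.0 CPM in GB-IL 1 to GB-IL 4, and from 11.6 to 20.3 CPM in the DIO livers. Rbm3 measured 99.6, 62.3, 30.2 and 18.9 CPM in the same livers (DIO 11.5 to 17.4 CPM), and Ier3 36.1, 25.9, 5.05 and 0.849 CPM (DIO 0.733 to 1.08 CPM). The RYGB livers ranged from 19.25 to 44.8 CPM in Sgk1, 18.9 to 53.5 CPM in Rbm3 and 0.827 to 6.37 CPM in Ier3. Every RYGB liver was thus above every DIO liver in Rbm3, and also in Atf3 (1.16 to 9.0 CPM in RYGB, at most 1.13 CPM in DIO). The part of such signals in the Per1 levels was not tested.

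Cell type markers shifted in some GB-IL livers as well. GB-IL 4 lay within the DIO range for cholangiocyte and neutrophil markers, and GB-IL 1 for macrophage markers. In GB-IL 1 to GB-IL 4 the 6 cholangiocyte markers summed to 318.2, 259.1, 218.0 and 58.1 CPM, against 30.5 to 65.8 CPM in DIO and 56.7 to 66.8 CPM in RYGB. The 6 neutrophil markers summed to 99.7, 46.7, 296.4 and 6.35 CPM in GB-IL 1 to GB-IL 4, to 5.24 to 9.84 CPM in DIO and to 7.25 to 78.7 CPM in RYGB, with the highest RYGB value in RYGB 5. The 9 macrophage markers summed to 766.6 to 2499 CPM in GB-IL, 454.5 to 801.4 CPM in DIO and 469.2 to 1168 CPM in RYGB, highest there in RYGB 1. Hepatocyte markers summed to 95180 to 123700 CPM in GB-IL, 123800 to 152300 CPM in DIO and 119400 to 139400 CPM in RYGB. The 6 skeletal muscle markers summed to 1204 CPM in GB-IL 1 and to at most 3.05 CPM in every other liver. By the quasi-likelihood test in GB-IL against DIO, 3 of 5 tested cholangiocyte markers, 3 of 4 neutrophil markers, 3 of 9 macrophage markers, 1 of 8 stellate cell markers and the 1 tested muscle marker were called higher, and 0 of 10 hepatocyte, 0 of 6 lymphocyte and 0 of 6 endothelial markers were called, beside 3.26% of all tested genes. As with the genes above, the same test called none of them without any 1 of the DIO livers, without GB-IL 1 or without GB-IL 2, or in the fit of the 2 groups alone. None of the lists had a marker at 0 in all livers. The part of these cells in the Per1 and Cry2 levels of GB-IL 1 and GB-IL 2 was not tested, and in whole liver fewer cells of a type and less RNA per cell cannot be told apart.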

How the data were processed

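The authors prepared 1 library for each of the 14 mouse livers, amplified the RNA and sequenced it on an Illumina HiSeq. They aligned the reads with TopHat 2 against mm10 and used HTSeq to count reads for every gene. The deposited values are raw counts, with no scaling. Which annotation and strand setting they used is not stated in the sources used here. Library kits are mentioned in the labels, which name 2 and do not say which liver had which, so kit was in no model. The depth was 18223135 to 28656631 counts a library, and the spread between livers exceeds the counting error for these genes. Each liver counts as 1 replicate, since the design gives a number of mice per group.

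The software was R 4.3.3 (edgeR 4.0.16; limma 3.58.1; DESeq2 1.42.0) and Python 3.11.15 (numpy 2.4.6; pandas 2.3.3; scipy 1.17.1). Genes passing filterByExpr by group were scaled with TMM factors. A single quasi-likelihood fit with 3 group means covered all livers, with Benjamini-Hochberg adjustment over the 14252 tested genes. The fit was tested on simulated data. Correlations used log2(CPM + 0.5) with group means removed. Alternatives were RLE and upper quartile scaling, no low-count filter, DESeq2, voom with sample quality weights, robust estimation, fits of the 2 compared groups alone, the replicate number as a block, and each liver left out. Sequences came from RefSeq (GRCm38.p6), and exon lengths and overlaps from GENCODE for GRCm38. The members and lists were chosen with earlier results of these data known. All members are named. From each further list, up to 3 genes with the smallest p per comparison could be named, and for each member up to 3 of the most alike and most opposite genes. Thra and Sphk2 are named for their overlap with members, and genes called by DESeq2 or voom outside this rule were named after their values were seen. The results of 1 gene of a further list are not reported here.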

Additional observations from a re-analysis of the deposited data

Results flagged for a closer look

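Among the 30 sets of values formed by 10 clock genes in 3 groups, 2 held a liver set apart from the rest of its group by Dixon's 95% criterion on log2(CPM + 0.5), and chance flags about 1 in 20 such sets. Both were DIO 1. Per2, a repressor of the clock, was at 10.6 CPM in DIO 1, with 27.8 to 37.9 CPM in the other 4 DIO livers, and the gap to the nearest liver was 0.754 of the range of the group on the log2 scale and 0.630 on CPM. Cry2, also a repressor, was at 23.1 CPM in DIO 1, with 45.1 to 53.1 CPM in the other 4 DIO livers, a gap of 0.803 of the range on the log2 scale and 0.734 on CPM. On CPM, a scale added after seeing the data, Per2 did not pass and Arntl did in DIO 1 (15.7 CPM, gap 0.769) and in GB-IL 1 (24.4 CPM, gap 0.900), as did Nr1d2 in DIO 2 (129.2 CPM, gap 0.784). The same liver was the lowest of the DIO group in Per3, Dbp and Nr1d2 and the highest in Arntl and Clock.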

How the results depend on the processing

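Under RLE and upper quartile scaling and under robust estimation, the counts of called members stayed at 0 in the 3 comparisons. DESeq2 called 1347, 94 and 884 of all genes in GB-IL against DIO, RYGB against DIO and GB-IL against RYGB, and 2 members in the last. Voom with sample quality weights called 1690 and 115 genes in RYGB against DIO and in GB-IL against RYGB, and 4 members in the former, and it turned Nr1d1 (-0.026) and Dbp (0.20) in GB-IL against DIO and Cry1 (-0.21) in RYGB against DIO. Without a low-count filter 51 genes were called in GB-IL against RYGB. Fits of the 2 compared groups alone called 0 genes in GB-IL against DIO and 33 in RYGB against DIO. The same numbers did not pair the livers, with correlations of same-numbered livers from -0.381 to 0.381 and 2 of 13 pairs above 0.1. With the replicate number as a block 1 gene was called in GB-IL against DIO, no member was called, and Cry1 (0.052), Nr1d1 (-0.18) and Nr1d2 (-0.0052) turned there. Leaving out 1 liver at a time gave 0 to 3572 genes in GB-IL against DIO, 0 to 5 in RYGB against DIO and 0 to 3120 in GB-IL against RYGB, the highest of each without GB-IL 4, and 0 to 1, 0 and 0 to 3 members. In GB-IL against DIO the log2 fold change then ranged from -0.99 to 1.53 for Arntl, -0.61 to 0.16 for Cry1, -0.13 to 0.37 for Nr1d1 and -0.10 to 0.26 for Nr1d2. In RYGB against DIO it ranged from -0.66 to 0.0028 for Per1 and -0.12 to 0.36 for Cry1, and in GB-IL against RYGB from -2.40 to -0.47 for Arntl, 0.49 to 1.80 for Dbp, -0.16 to 0.39 for Per2 and -0.78 to 0.071 for Cry1. The 4 correlated pairs became 0 without the GB-IL livers and 0 without the 2 farthest livers, with fewer livers in each, 4 with RLE scaling and 0 to 5 leaving out 1 liver. The cause of the other changes was not tested. The lowest count of any member was 24 reads, and no fit at a reduced depth was made.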
